A study of Homo sapiens with 6 samples.

Results

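The regions described here carried a TCF4 peak and no peak of any other library, and lay away from the ends of protein-coding genes. To find them, the peaks of all 5 lists on chromosomes 1 to 22 and X were pooled and intervals sharing at least 1 bp were merged, which gave 61457 regions. Of these, 29994 held a TCF4 peak and 13262 held TCF4 peaks only. In 8285 of those the summit of the strongest TCF4 peak was more than 1 kb from every end of a protein-coding gene (RefSeq, GRCh38.p14). These 8285 regions, called TCF4-only distal regions below, are 27.6% of all regions with a TCF4 peak. "Distal" here means only away from the outer ends of protein-coding genes, and a distal summit can lie inside such a gene. They were selected on the TCF4 peak calls and on the missing calls of the other libraries, so neither is a finding, and "TCF4-only" means that no other peak was called there and not that no other protein was bound.

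All libraries came from the human neuroblastoma line SK-N-BE(2), in which MYCN is amplified, and were made by CUT&Tag, in which an antibody guides a transposase that cuts and tags DNA close to the bound protein. The groups differed in the protein or antibody that the labels name. They were HAND2 with 2 libraries, MEIS2 with 2, TCF4 with 1, and non-specific IgG with 1, whose own peak list was not analysed here. The labels name no treatment, and nothing in them says that replicates came from separate cultures. No expression data were analysed here, so the cell type could not be checked against its markers. TCF4 has no replicate: each value below describes 1 library of 1 cell line, regions are not replicates, and no p-value is given.

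TCF4 is an E protein, a broadly expressed basic helix-loop-helix (bHLH) factor. It binds DNA as a dimer with itself, with another E protein or with a tissue-restricted class II bHLH factor such as HAND2, and the dimers recognise the E-box, CANNTG. ID proteins lack the basic, DNA-contacting part and hold E proteins in dimers that cannot bind. In neuroblastoma, HAND2 belongs to the group of regulators that maintain the adrenergic, sympathetic-like state, and MEIS2 is a TALE homeodomain factor.

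Sequences are shown first for strong TCF4-only distal regions whose summit fell within a RefSeq promoter window, since these are the members whose sequence could be read. A promoter window runs from 250 bases before to 50 bases after a transcript start, and a gene can have several starts away from its outer ends. The 250 bases before the start follow, 5′ to 3′ on the strand of the transcript, from the RefSeq table for GRCh38.p14. Capitals mark E-boxes (CANNTG) and the 9-base word GGGCGTGGC, which was picked after the sequences had been seen. "Fold" is the enrichment of TCF4 fragments at the summit over the local background.

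LOC100288175 (fold 47.4, chr1:1059484-1059733, plus strand): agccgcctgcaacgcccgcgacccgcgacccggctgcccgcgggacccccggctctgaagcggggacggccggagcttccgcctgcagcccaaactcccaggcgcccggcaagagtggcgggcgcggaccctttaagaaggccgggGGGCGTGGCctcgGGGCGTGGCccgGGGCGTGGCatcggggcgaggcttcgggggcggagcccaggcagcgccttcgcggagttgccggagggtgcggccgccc

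MRPL44 (fold 31.9, chr2:223957213-223957462, plus strand): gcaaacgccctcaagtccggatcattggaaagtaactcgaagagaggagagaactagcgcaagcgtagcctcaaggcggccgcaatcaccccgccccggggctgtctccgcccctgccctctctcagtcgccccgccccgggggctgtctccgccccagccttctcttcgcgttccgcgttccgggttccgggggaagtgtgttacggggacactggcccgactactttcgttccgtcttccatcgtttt

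LOC107985732 (fold 20.3, chr1:2764314-2764563, plus strand): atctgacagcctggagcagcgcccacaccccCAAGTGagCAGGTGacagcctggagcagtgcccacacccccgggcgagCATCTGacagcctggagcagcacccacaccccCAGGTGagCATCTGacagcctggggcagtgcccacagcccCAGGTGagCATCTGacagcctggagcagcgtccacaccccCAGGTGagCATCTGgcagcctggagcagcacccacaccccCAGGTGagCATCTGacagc

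L3MBTL1 (fold 19.9, chr20:43514191-43514440, plus strand): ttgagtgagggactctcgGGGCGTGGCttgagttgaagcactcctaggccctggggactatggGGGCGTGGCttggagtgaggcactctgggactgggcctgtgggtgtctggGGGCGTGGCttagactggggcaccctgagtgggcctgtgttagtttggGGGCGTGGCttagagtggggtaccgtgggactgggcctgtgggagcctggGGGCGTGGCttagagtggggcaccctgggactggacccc

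KLHL32 (fold 14.0, chr6:96924478-96924727, plus strand): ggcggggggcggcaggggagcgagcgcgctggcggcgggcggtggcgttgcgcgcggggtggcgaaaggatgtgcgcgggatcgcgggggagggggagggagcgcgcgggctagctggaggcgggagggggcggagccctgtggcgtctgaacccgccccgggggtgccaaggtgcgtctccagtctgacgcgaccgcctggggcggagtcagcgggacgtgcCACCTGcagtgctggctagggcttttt

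These stretches differ in their E-box content. LOC107985732 is the start of a long non-coding RNA inside TTC34, and its window held 11 E-boxes, 5 of them CAGGTG and 5 CATCTG, within a tandem repeat. Shifted by 120 bases, 91.5% of its bases matched themselves. KLHL32, which encodes a kelch-like protein, had 1 E-box, CACCTG. MRPL44, which encodes a mitochondrial ribosomal protein, L3MBTL1, which encodes a chromatin reader with MBT repeats, and the long non-coding RNA LOC100288175 beside AGRN had 0 in the bases shown. L3MBTL1 carried GGGCGTGGC 5 times and LOC100288175 carried it 3 times. Shifted by 50 bases, 60% of the L3MBTL1 bases matched themselves, so its 5 copies lie in partly repeated sequence. GC content was 78.4% in LOC100288175, 76.0% in KLHL32, 66.4% in LOC107985732, 66% in L3MBTL1 and 63.6% in MRPL44.

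In all, 238 TCF4-only distal regions (2.87%) had the summit in a promoter window, 151 of them in a window of a protein-coding gene and 100 in one of a long non-coding RNA. The share was 3.04% (364 regions) among the 11974 distal regions that held both TCF4 and HAND2 peaks, with overlapping exact 95% binomial intervals (2.52 to 3.26% and 2.74 to 3.36%). Motifs were searched on both strands in whole windows of 300 bases. An E-box was present in 59.2% of the TCF4-only windows (141 of 238, 52.7 to 65.5%), in 64.6% of the TCF4 and HAND2 windows and in 68.7% of all 34789 promoter windows. Among single forms, CAGGTG (or its complement CACCTG) was present in 27.3% of TCF4-only windows, 18.7% of TCF4 and HAND2 windows and 20.6% of all windows. CAGCTG was present in 22.3%, 26.9% and 17.9%, in the same order. CACGTG was present in 11.3%, 8.52% and 7.24%. CATCTG (or CAGATG), which HAND2 and E protein dimers are known to bind, was present in 9.66%, 14.6% and 14.7%. The word GGGCGTGGC was present in 3.36%, 4.67% and 2.46%. A tandem repeat, counted where 70% or more of the bases matched themselves at some shift from 10 to 120 bases, was present in 2 of 238, 0 of 364 (which allows up to 1.008%) and 114 of 34789 windows. Median GC content was 69.3%, 66% and 58.7%, so the 3 sets of windows also differ in base composition, whose part in the motif shares was not tested. A match is a run of letters and not a measured site.

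MicroRNA genes are a further class for which sequences could be read. Of 1558 hairpins, 57 (3.66%) overlapped a TCF4-only distal region, in 52 regions, and 201 overlapped any region with a TCF4 peak. TCF4-only distal regions are 27.6% of all regions with a TCF4 peak, and 57 of 201 lies near that share. This look at microRNAs was added after the data were seen. In 8 regions the summit lay inside a hairpin. The mature sequences of the better known hairpins in these 8 regions follow, with the seed (bases 2 to 8), which pairs with target messages, in capitals.

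hsa-miR-132-3p: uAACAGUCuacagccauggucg

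hsa-miR-212-3p: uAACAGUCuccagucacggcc

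hsa-miR-106b-5p: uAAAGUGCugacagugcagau

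hsa-miR-25-3p: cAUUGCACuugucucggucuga

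hsa-miR-429: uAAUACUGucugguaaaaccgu

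hsa-miR-126-3p: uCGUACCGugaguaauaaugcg

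A TCF4-only region at chr17:2049700-2050797 with fold 7.38 (95% Poisson interval 5.74 to 9.34) and a pile-up of 67 fragments covered MIR132 and MIR212 together. Both are activity-dependent neuronal microRNAs, and their 3p strands share the seed AACAGUC. The summit lay at the edge of the MIR212 hairpin, 4832 bp from HIC1. A region with fold 5.64 (4.12 to 7.55) and a pile-up of 43 lay in MCM7, a replication helicase gene, over MIR106B and MIR25, whose seeds differ (AAAGUGC and AUUGCAC). MIR429, a member of the miR-200 family that is known for keeping cells epithelial, had fold 4.98 (3.51 to 6.87). MIR126, an endothelial microRNA in EGFL7, had fold 3.27 (2.25 to 4.60). The other summits inside a hairpin were at MIR4730 (fold 4.22), MIR3175 (4.07), MIR4252 (3.31) and MIR6763 (2.39). At MIR9-1, which encodes the neuronal miR-9, the summit lay 2 bp outside the hairpin, with fold 4.44 (3.27 to 5.91). The highest fold in a region that touched a hairpin was 12.3, at MIR193A, where the summit was 970 bp away, and the hypoxia-induced MIR210 had 5.30. Apart from MIR193A, none of the hairpins named here had a fold of 10 or more.

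Most TCF4-only distal regions were weak and narrow. The median fold was 3.805 (quartiles 3.06 and 4.97) and 90% of the regions had a fold of at most 6.94, while the lowest was 1.21. The median pile-up was 35 fragments (lowest 8), over a median background that equalled 11.0 control fragments. Their median width was 652 bp (361 to 8578 bp), and each held 1 TCF4 peak. The fold reached 10 in 303 regions (3.66%) and 20 in 16. The q-value was near the limit for many: 1808 regions (21.8%) had a −log10 q under 5, against a median of 9.10.

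The 11974 distal TCF4 regions with HAND2 had higher values, with a median fold of 6.74, a pile-up of 72 and a width of 1419 bp. A fold of 10 or more was reached by 30.1% of them. The 4977 TCF4-only regions at gene ends had a median fold of 4.07, closer to the distal ones, but a larger pile-up (65) over a larger background (19.0 control fragments). A fold is a ratio, so equal folds there rest on more fragments. These class differences follow in part from the selection on missing peaks and were not tested.

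Across all 20531 distal TCF4 regions, 40.4% were TCF4-only, and that share fell at each step of fold up to 30. It was 78.9% (76.0 to 81.7%) for folds up to 2.5, 49.2% for folds of 4 to 5, 25.4% for 6 to 8 and 11.9% for 10 to 15. Above 20, 16 of 1147 regions were TCF4-only (1.39%, 0.799 to 2.26%). The regions also widened with fold, from a median of 617.5 bp for folds up to 2.5 to 2850 bp above 30, and among the TCF4-only ones from 559 to 2009 bp. A wider interval meets a peak of another list more easily, and the part of width in the falling share was not tested.

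**Figure D1:**
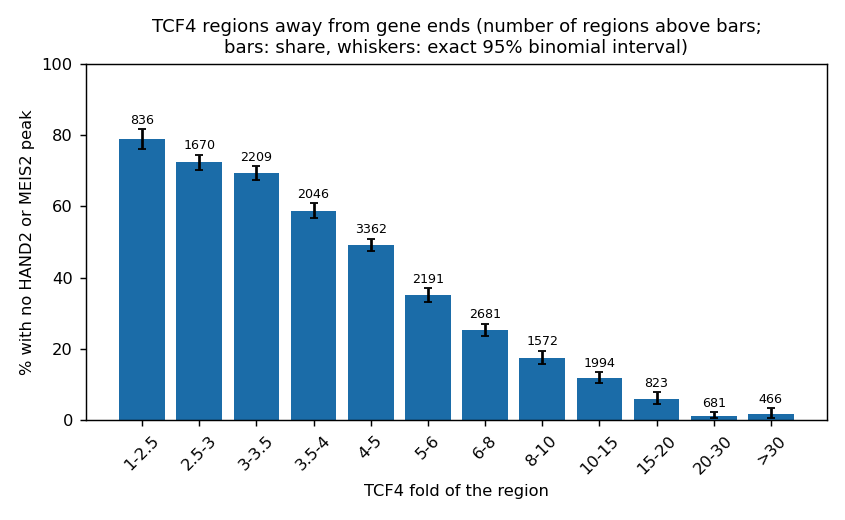
Share of distal TCF4 regions that held no HAND2 or MEIS2 peak (y axis, percent) by the TCF4 fold of the region (x axis), with exact 95% binomial intervals and the number of regions above each bar. The share falls from 78.9% in the lowest class to under 2% above a fold of 20, while median region width rises from 617.5 to 2850 bp.

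The lists do not reach equally low. At the median background of these regions, the lowest fold that was called was 2.28 and 2.19 in HAND2 replicates 1 and 2, 3.28 and 2.96 in MEIS2 replicates 1 and 2, and 2.28 in TCF4. Of the TCF4-only distal regions, 256 and 163 had a TCF4 fold under the HAND2 values, while 2730 (33.0%) and 1747 (21.1%) were under the MEIS2 values. A further comparison shows the limit of such counts: 260 were under the TCF4 value, though called in TCF4. The lowest fold called falls as background rises. In MEIS2 replicate 1 it was 3.53 at the lower and 2.98 at the upper quartile of background. Depth relative to the control, read from the background in the lists, came to 0.789 and 0.932 in the HAND2 lists, 0.248 and 0.368 in the MEIS2 lists, and 0.784 in the TCF4 list. It is least certain for MEIS2 replicate 2. There the background came out as a whole number of control fragments for 43.9% of the peaks with a background above the list's lowest. Many of these regions thus had a TCF4 fold under the lowest MEIS2 fold called at the median background, but not each region has that background. Binding of one protein cannot be read from the fold of another, so these values describe only how low the lists reach.

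**Figure D2:**
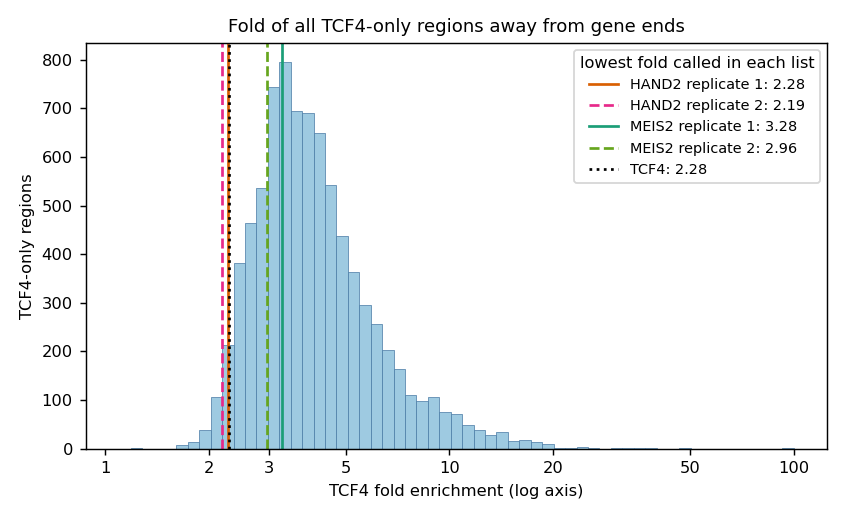
Number of TCF4-only distal regions (y axis) by TCF4 fold (x axis, log scale), with vertical lines at the lowest fold called in each list at the median background. The HAND2 and TCF4 lines sit at 2.19 to 2.28, left of nearly all regions, and the MEIS2 lines at 2.96 and 3.28 cut into the bulk.

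HAND2 and MEIS2 peaks were often near, though not overlapping. The gap from a TCF4-only distal region to the nearest HAND2 or MEIS2 peak had a median of 7840 bp (quartiles 2755 and 20741 bp). It was within 1 kb for 782 regions (9.44%), within 10 kb for 56.5% and within 100 kb for 96.1%, and the smallest gap was 1 bp. The nearest such peak was a HAND2 peak for 85.0%, and HAND2 has the longest lists. The 100 strongest regions had a median gap of 13308.5 bp. The regions also had close neighbours of their own kind: the median distance to the next one was 10932 bp, and 48.0% had one within 10 kb. The corresponding values for the TCF4 and HAND2 regions were 10450 bp and 49.0%.

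The members nearest the 1 kb limit were of ordinary fold. Just inside it lay regions at TEX22 (1002 bp from the nearest gene end, fold 3.99), KCNJ3 (1002 bp, 2.88) and TMEM276-ZFTRAF1 (1004 bp, 3.60). Just outside lay RIMS4 (1000 bp, 5.55), FAM83G with SLC5A10 (997 bp, 2.90) and ACTN4 (997 bp, 4.50). Each region is named by the gene that holds its summit or lies nearest. The end measured can belong to another protein-coding gene, as at ACTN4. The 97 regions within 100 bp inside the limit had a median fold of 3.59, and the 148 within 100 bp outside it had 3.72.

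Among the strongest was a region 3422 bp outside AGRN, the agrin gene of the neuromuscular synapse. It lay at the start of LOC100288175, with fold 47.4 (43.4 to 51.6) and a pile-up of 529. Lower folds followed 17350 bp from VPS53 (38.7) and inside A1BG (38.6), PGAP6 (35.4), MRPL44 (31.9), MELTF (31.6) and ACOX3 (31.3). The AGRN interval lies above those of A1BG and PGAP6.

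Further regions of the 25 strongest had folds from 25.6 down to 18.7. Far from any protein-coding gene were a region 215602 bp from SOX6 (25.6), a SOX factor, one 171634 bp from C1orf174 (24.9), one 108261 bp from LOC100996701 (24.1) and one 385007 bp from TAFA5 (19.3). Nearer ones lay outside SNTG2 (24.2), ACTL8 (22.97) and GP1BB (19.5), a platelet receptor gene. Inside genes were TBC1D24 (23.4), AHRR (20.9), the aryl hydrocarbon receptor repressor, TTC34 (20.3 and 19.4), L3MBTL1 (19.9), SMPD4 (19.3), MAD1L1 (19.2), a spindle checkpoint gene, MIGA2 (19.0) and HS6ST1 (18.7), a heparan sulfate sulfotransferase. The TTC34 region at 20.3 is the one with the E-box repeat shown above. The L3MBTL1 region had 77.0 control fragments at its summit and SMPD4 34.0, the highest of the 25. SMPD4 lies in duplicated sequence, so the placement of its fragments is uncertain.

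**Figure D3:**
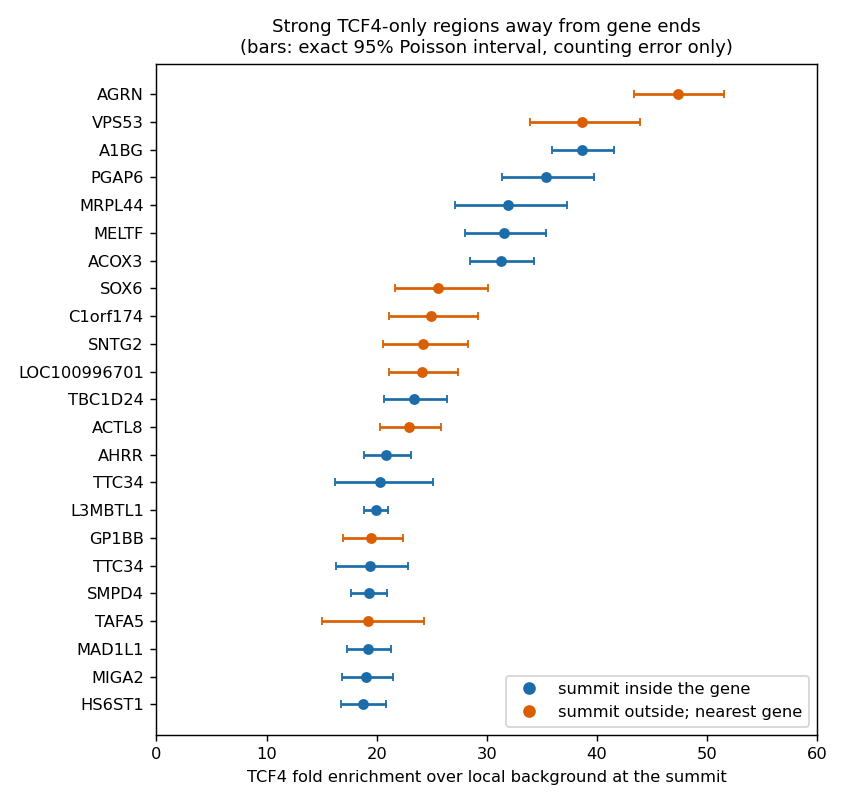
TCF4 fold at the summit (x axis) of TCF4-only distal regions among the 25 strongest, named by the gene that holds the summit (blue) or the nearest gene (orange), with exact 95% Poisson intervals of the pile-up. The AGRN region at 47.4 is the highest shown, and from SOX6 downwards the intervals overlap those of their neighbours.

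Most of the regions lay inside a protein-coding gene. The share was 68.2% (5650 regions, 67.2 to 69.2%), against 62.5% (61.6 to 63.4%) of the distal TCF4 and HAND2 regions. The other 2635 were a median of 18340 bp from the nearest gene. They lay closer to gene ends than the TCF4 and HAND2 regions, with medians of 11236 and 22910.5 bp, and 582 (7.02%) were more than 100 kb from any end, against 14.5%. The 8285 also lay where genes are dense, with a median of 16 protein-coding genes within 500 kb against 11. The table of starts gives a strand for 15812 genes. Of the 6290 regions whose nearest end belongs to such a gene, that end was the 5′ end for 45.1% (43.9 to 46.3%), against 48.8% (47.8 to 49.8%) for TCF4 and HAND2. Within genes on a known strand the regions leaned to the 3′ side: their median position, from 0 at the 5′ end to 1 at the 3′ end, was 0.559 against 0.490. The 3′-most 20% of the gene length held 25.6% and the 5′-most 20% held 17.05%, against 19.1% and 19.9% for the TCF4 and HAND2 regions. Exons and introns are not in the tables used here.

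The regions were frequent near chromosome ends. Within 5 Mb of the outermost protein-coding genes of their chromosome lay 43.3% (42.2 to 44.3%) of the TCF4-only distal regions. The same stretch held 21.8% (21.0 to 22.5%) of the distal TCF4 and HAND2 regions, 21.6% of the TCF4-only regions at gene ends and 13.6% of the genes. In windows of 1 Mb, the fullest were chr19:1000001-2000000 with 83, chr17:81000001-82000000 with 77, chr16:1000001-2000000 with 76 and chr1:1000001-2000000 with 74. Copy number, GC content and how well reads can be placed near chromosome ends were not measured here, so their part in this was not tested.

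By chromosome, the TCF4-only share of distal TCF4 regions was highest on chromosomes 21 (60.6%), 19 (58.8%) and 4 (50.3%) and lowest on 18 (28.0%) and 3 (29.5%). The number per 100 protein-coding genes ran from 11.7 on X to 114 on chromosome 22. Chromosome 22 also had the most TCF4 and HAND2 regions per 100 genes (137), while on chromosomes 4, 19 and 21 the TCF4-only regions were the more numerous.

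**Figure D4:**
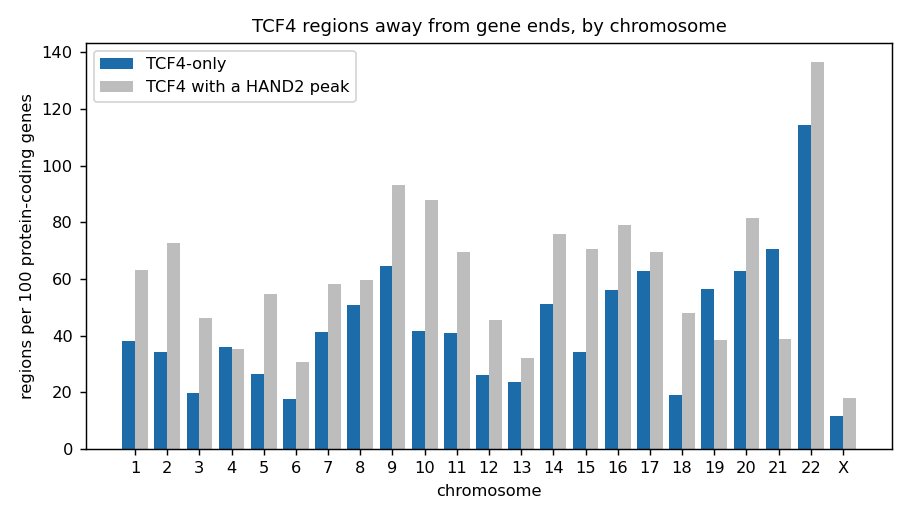
Distal TCF4 regions per 100 protein-coding genes (y axis) on each chromosome (x axis), for TCF4-only regions (blue) and regions with TCF4 and HAND2 peaks (grey). The TCF4-only bar is the taller on chromosomes 4, 19 and 21, and both are tallest on chromosome 22.

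The 10 genes with most TCF4-only distal regions inside were 87.0 to 1049 kb long, against a median of 24.2 kb over all protein-coding genes. They are given beside all distal TCF4 regions inside the gene, since 40.4% of all 20531 distal TCF4 regions were TCF4-only. MAD1L1 held 31 of the regions, of 69 distal TCF4 regions inside it, which is near that share. KCNQ1, a potassium channel gene of heart and epithelia, held 30 of 48, PRDM16, a zinc finger regulator of brown fat and neural stem cells, 28 of 39, and RBFOX3, the splicing factor known as NeuN, 24 of 34. MEGF6 held 22 of 31, KDM4B, a histone demethylase, 17 of 36, MACROD1 16 of 43, TSNARE1 16 of 27, PTPRN2 15 of 34 and CROCC2 14 of 21. Per 100 kb of gene this came to 16.1 in MEGF6 and CROCC2 and 1.43 in PTPRN2. Inside MAD1L1 the folds ran from 2.14 to 19.2 with a median of 3.43, and 1 region reached 10. Inside KCNQ1 the median was 3.57 and the highest 7.21, so none reached 10. A fold of 10 or more was reached by 3 of the 22 regions inside MEGF6, by 2 of 28 inside PRDM16 (14.3 and 14.2) and by 2 of 14 inside CROCC2 (12.4 and 11.6).

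Over all protein-coding genes, 36.3% had a TCF4-only distal region in the gene or within 50 kb, so having none was the more common case. Among the genes of the factors themselves, none lay in or within 50 kb of HAND2, MEIS2 or TCF4. The MEIS2 gene held 2 and the TCF4 gene 4 distal TCF4 regions, each shared with another list. GATA3, an adrenergic regulator, had 1 TCF4-only distal region inside, with fold 5.96 (4.16 to 8.30). Near MYCN there were 2, with folds of 3.18 (2.31 to 4.27) and 1.21 (1.15 to 1.28). The second, at chr2:15965558-15965982, had a pile-up of 1516 and is the weakest of all 8285 by fold. Its background equalled 1592 control fragments. Each of these counts as 0.784 in the TCF4 list, so that number is on another scale than the pile-up. The background there was far above the median of 11.0, in a stretch that is amplified in this line.

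The E proteins and their ID inhibitors differed among themselves. TCF3, the gene of the E proteins E12 and E47, had 15 regions in or within 50 kb, of which 7 lay inside. Their folds were modest: the highest, 6.11 (4.16 to 8.68), lay 16050 bp outside, and those inside ran from 2.72 to 4.34 with a median of 3.15. TCF3 lies in the fullest 1 Mb window, on chromosome 19. TCF12, which encodes the E protein HEB, had 2 (5.09 and 2.93). ID3 had 2 (5.07 and 4.80), ID2 had 1 (3.78), and ID1 and ID4 had 0.

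For gene groups, a gene was counted where a TCF4-only distal summit lay in it or within 50 kb. This held for 36.3% of all 19974 protein-coding genes (7257), and 14.8% had one inside. These shares are the background, and with 7 to 46 genes a list the intervals are wide. The regions were dense near chromosome ends, and a longer gene has more room for one inside. A single fold beside a gene is that of its strongest region, which can lie outside the gene or inside a neighbouring one. Each list's share is given with its exact 95% binomial interval, and no list was tested.

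The Notch pathway had the largest share, 17 of 28 genes (60.7%, 40.6 to 78.5%), with 17.9 regions per Mb against 6.90 over all genes. HES4, a transcriptional target of Notch, had 18 regions within 50 kb, the highest at 15.6 (12.9 to 18.6) inside the neighbouring AGRN. JAG2, a ligand, had 11 (highest 6.46), NOTCH1, a receptor, had 3 (7.57) and RBPJ, the DNA-binding effector, had 1 inside (8.11). HES4 lies at the edge of the window chr1:1000001-2000000 and its 74 regions, and its own 18 were not told apart from that density.

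Of the adrenergic regulators, 13 of 27 had a region (48.1%), with the highest at ZNF536 (13.9, 11.0 to 17.2; 9 regions, 7 inside), KLF13 (8.73), GATA3 and LMO1 (5.77), a susceptibility gene of neuroblastoma. Of mesenchymal-state genes it was 9 of 30 (30%), with ZFP36L1 (7.95), SMAD3 (7.36) and COL1A1 (5.99). The intervals of the 2 lists overlap (28.7 to 68.1% and 14.7 to 49.4%) and both hold 36.3%. Among genes of catecholamine synthesis and storage, 7 of 18 had one. TH, the rate-limiting enzyme, had 11 within 50 kb and 0 inside (highest 6.58), DBH 8 (4.47) and PNMT 2 (4.80). Of receptors and kinases of neuroblastoma, 8 of 20 had one, with LIFR (9.22), RET (7.27; 6 regions), ALK (5.07, 3.03 to 8.05, on a pile-up of 16) and NGFR (5.02).

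Class II bHLH genes, the possible partners of TCF4, had 10 of 34 (29.4%), with TCF15 (13.7), NEUROD2 (13.2; 7 regions), LYL1 (6.94) and BHLHE23 (4.87; 11 regions). Of E protein and ID genes it was 4 of 7. Of WNT pathway genes it was 16 of 38 (42.1%): AXIN1, a scaffold of the destruction complex, had 12 regions, the highest the PGAP6 region at 35.4. DVL1 had 13 (highest 11.8), TCF7L2, a HMG-box factor of another family than TCF4 despite its older name, 2 (8.57) and NKD2 5 (7.61). Of TGF-β and BMP genes it was 12 of 31 (38.7%). The highest were SKI (14.6; 12 regions), BMP7 (11.1), TGFBR1 (8.66, at a start inside the gene) and SMAD7 (8.38). The SKI region lay 23502 bp outside the gene, in FAAP20, and the highest fold inside SKI was 4.07. Those of BMP7 and SMAD7 lay 25956 and 46073 bp outside.

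Groups of long neuronal genes showed more on the inside count. Of axon guidance genes 18 of 39 had a region within 50 kb (46.2%) and 14 had one inside (35.9%, against 14.8% of all genes), but their median length was 211 kb against 24.2 kb. The highest folds were at EFNA1 (16.3, 32370 bp outside the gene), EPHB2 (14.0, inside), SEMA4D (11.1, inside) and SLIT1 (8.17, 10557 bp outside). EPHB2 held 4 regions inside, SEMA4D 3 and SLIT1 8. Of ion channel genes 16 of 36 had one and 13 had one inside, among them KCNN3 (10.04), CACNA1C (6.94) and CACNA1G (6.93). Of neuronal adhesion and synapse genes it was 14 of 38 (36.8%). NRXN2 had 15 regions, 8 of them inside with folds from 3.23 to 12.3, NFASC had 3 (13.2), L1CAM 6 (9.44), and DLG1 had the MELTF region (31.6) within 50 kb. Counted per Mb, these 3 lists had 3.73, 3.92 and 2.37 regions, fewer than the 6.90 over all genes.

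Lists with no tie to the neuronal lineage lay on both sides of the 36.3% background. Ribosomal protein genes had 23 of 46 (50%) within 50 kb but 1 inside, with RPS28 at 12.1. Blood cell genes had 10 of 21, with ELANE (8.94; 11 regions). Epithelial genes had 10 of 22, with PKP3 (17.3; 10 regions) and CLDN4 (12.05). Cell cycle genes had 11 of 33 (33.3%), with CDKN1C (10.6; 8 regions) and CDC6 (10.2). Liver genes had the smallest share, 3 of 20 (15%, 3.21 to 37.9%), with TF at 5.76, APOB at 2.67 and PCK1 at 2.36. The shares of the blood cell (47.6%), ribosomal protein (50%) and adrenergic (48.1%) lists thus lay close together, with overlapping intervals.

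**Figure D5:**
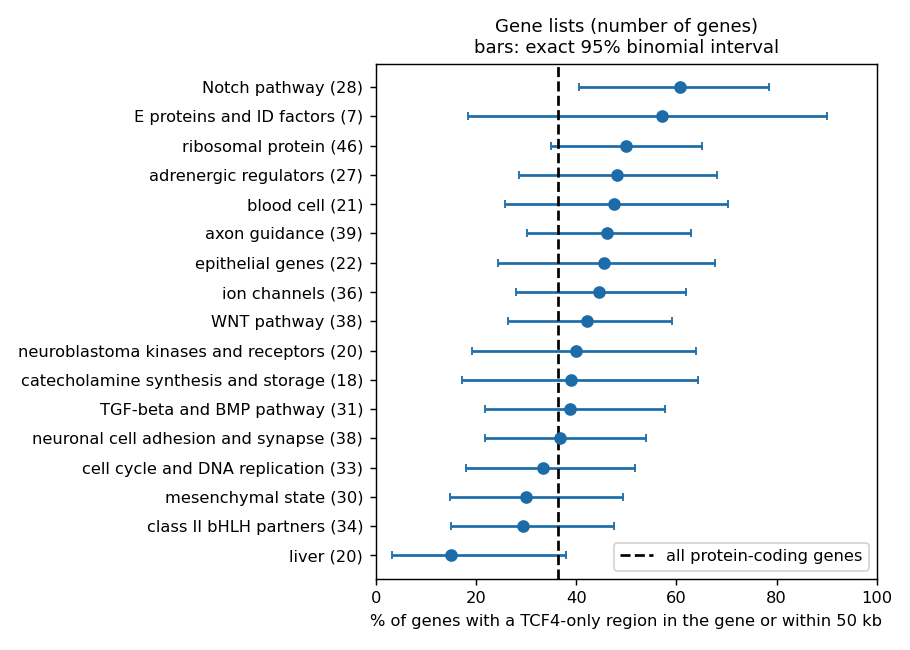
Share of the genes of each list with a TCF4-only distal region in the gene or within 50 kb (x axis, percent), with exact 95% binomial intervals and the number of genes in brackets. The dashed line is the 36.3% of all protein-coding genes, which only the Notch pathway interval does not hold.

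A summit away from the ends of protein-coding genes can still lie at an end of another kind of gene. In 898 regions (10.8%, 10.2 to 11.5%) the summit lay within 1 kb of an end of a non-coding gene or pseudogene, 611 of them at a long non-coding RNA and 90 at a microRNA. The strongest were at LOC100288175 (47.4), LOC100134368 (35.4, inside PGAP6), MELTF-AS1 (31.6, antisense to MELTF), LOC107985732 (20.3), and LOC105378599 with LOC107984904 (19.4, inside TTC34). These are among the 25 strongest described above. Then came LOC105372841 on chromosome 21 (18.0), the pseudogene HERC2P4 with LOC124903764 (17.9) and LOC105372106 on chromosome 18 (17.8). HERC2P4 is a copy of part of HERC2, so fragments there may belong to another copy.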

How the data were processed

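Peak lists of 5 CUT&Tag libraries were used. Groups were taken from the titles for HAND2 and MEIS2 and from the antibody label for TCF4 and IgG. The submitters' processing notes name bcl2fastq 2.17, MACS3 3.0.0a6, Bowtie2 and the build hg38. For Bowtie2's version, caller options and duplicate removal, the answer is not given in the sources used here. The peaks were called per sample, as the deposited lists show. The deposited fold, a ratio of summit pile-up to local background, and the deposited −log10 p and −log10 q were used as the authors' caller wrote them. The deposited scores were not used. The peak names of MEIS2 replicate 2 carry the word Flag, which the labels do not explain. Of 30711 TCF4 peaks, 7 on other sequences than chromosomes 1 to 22 and X were dropped.

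Members and gene lists were chosen with earlier results of these data known. The lists hold no read totals. The pile-up was taken as the whole number that gives back the deposited fold and Poisson p to a relative 5e-05 (found for 98.8% of MEIS2 replicate 1 peaks and 100% of the others), a step tested on simulated data. The local background divided by the step common to the backgrounds of its list is given as control fragments, a level and not a count. Among peaks with a background above the list's lowest, it came out whole within 0.03 for 74.4% in TCF4. The values were 68.8% and 69.8% in HAND2 and 68.6% and 43.9% in MEIS2 (replicates 1 and 2). Depth and lowest fold are thus least certain for MEIS2 replicate 2, whose lowest fold rests on 149 peaks. The deposited names of the HAND2 and MEIS2 lists give IgG as the control and that of the TCF4 list gives none, so the same control was assumed. Fold intervals are exact 95% Poisson intervals with the background fixed, and shares have exact (Clopper-Pearson) intervals. Fragments may share a molecule of origin, so both cover counting error only. Genes, promoter windows and microRNAs came from RefSeq tables of GRCh38.p14, the build of the lists. The gene table gives no exons, and with no genome sequence motifs could be searched in promoter windows only. Named were the 25 strongest regions, the 10 genes with most regions inside, up to 4 genes a list with the strongest region, 13 factor genes, 3 regions on each side of the 1 kb limit and the 10 strongest non-coding genes. Some items that these rules name are not reported here. Alternatives were stricter q-values, other merging, other distances and leaving out each replicate. Python 3.11.15, numpy 2.4.6, pandas 2.3.3, scipy 1.17.1 and matplotlib 3.10.9 were used.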

Additional observations from a re-analysis of the deposited data

How the results depend on the processing

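The number of TCF4-only distal regions stayed within 1.5 times 8285 under 13 of 14 alternatives (5766 to 10352), and was 2072 where each list was reduced to its 5000 highest folds. With that reduction the median fold was 13.7, the median gap to the nearest HAND2 or MEIS2 peak 39539.5 bp, the share inside genes 65.7% and the share of genes with a region 15.2%. With −log10 q of at least 5 in all lists, those values were 4.26, 9695 bp, 66.9% and 35.4%. With that limit on TCF4 alone, the median fold was 4.20, the share inside 67.1% and the share of genes 33.1%. Merging intervals within 500 bp gave a gap of 8654 bp and 35.5% of genes, and counting as shared only overlaps of at least 50% of the shorter interval gave 7271 bp and 37.0%. Gene-end distances of 500 bp, 2 kb and 5 kb gave 39.7%, 33.2% and 26.9% of genes. The share inside was 66.8% at 2 kb and 63.8% at 5 kb, where the median fold was 3.86. With the ends of all RefSeq genes, the gap was 7357 bp, the share inside 70.9% and the share of genes 33.8%. Without TCF4 peaks of 30 or more control fragments it was 34.7% of genes. The gene share was 14.8% inside the gene only, 22.0% within 10 kb and 45.5% within 100 kb. The share of promoter windows with an E-box stayed within its interval under all 14.

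Leaving out each HAND2 or MEIS2 replicate gave 8301 to 10352 regions, median folds of 3.81 to 3.94, gaps of 8080 to 10257 bp, 67.6 to 68.2% inside, 36.4 to 39.8% of genes and an E-box in 57.9 to 59.6% of windows. The highest number, fold, gap and gene share came without HAND2 replicate 2. No paired analysis was possible because TCF4 has 1 library and no value comes from a test. E-box windows of 50 and 200 bp around summits were not run, since they need a genome sequence. At the median background the lowest TCF4 fold called was 2.28, so no weaker enrichment was called there.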
